A study of Homo sapiens with 60 samples.

Results

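The tubulin isotype genes described here are 10 of the 60675 rows of a table of expected counts, which estimate how many sequenced fragments came from each gene. They were chosen by symbol and comprise 4 alpha-tubulins (TUBA1A, TUBA1B, TUBA1C and TUBA4A) and 6 beta-tubulins (TUBB, TUBB2A, TUBB2B, TUBB3, TUBB4B and TUBB6). All 10 passed the filter on low counts and belong to the 19366 genes tested. The libraries, 60 in number, hold messenger RNA of SW1783, an established human astrocytoma line, collected 24 h after an ethanol extract or vehicle was added. The extracts came from 4 herbs, Polygalae Radix, Aucklandiae Radix, Menthae Herba and Saposhnikoviae Radix, and from 4 multi-herb formulas, Guibi-tang, Okbyeongpung-san, Saengmaek-san and Soyo-san, and are called below by their first word. Polygalae was given at 1.2, 6 and 30 µg/mL and Aucklandiae at 6.4, 32 and 160 µg/mL, and each of the other extracts at 20, 100 and 500 µg/mL. These are the low, medium and high doses, and the design text sets the high dose at the IC20 where an extract's IC20 lay below 500 µg/mL. Each dose had 3 libraries for Menthae, Saposhnikoviae, Saengmaek and Guibi, 2 for Polygalae, Aucklandiae and Soyo, and 1 for Okbyeongpung, and vehicle (DMSO) had 3. All groups are 1 cell line, and nothing in the labels says that replicates are separate cultures, so p-values measure the spread between these libraries, which may be technical.

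Alpha- and beta-tubulin form the dimers from which microtubules, the hollow filaments of the mitotic spindle, of intracellular transport and of astrocyte processes, are built. Each subunit is encoded by several genes whose proteins are nearly alike over most of their length and differ mainly at the C-terminal tail, and the mixture of isotypes differs between tissues. TUBB3, the class III beta-tubulin, is best known as a marker of neurons and is also found in gliomas, while TUBB, TUBA1B and TUBB4B are made by most dividing cells. Cells also adjust tubulin messenger RNA to the amount of free dimer: the protein TTC5 recognises the first residues of a tubulin chain as it leaves the ribosome and, with SCAPER and the CCR4-NOT deadenylase, brings about decay of that messenger RNA.

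The start of each coding sequence is shown because it encodes the stretch that this machinery reads, and because it shows how alike the members are. The sequences below are from GENCODE release 29 (GRCh38), 5′ to 3′, with the first 4 codons in capitals.
TUBA1A: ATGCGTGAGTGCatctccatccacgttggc
TUBA1B: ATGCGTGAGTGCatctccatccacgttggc
TUBA1C: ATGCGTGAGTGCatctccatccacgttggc
TUBA4A: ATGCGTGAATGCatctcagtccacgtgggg
TUBB: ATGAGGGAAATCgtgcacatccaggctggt
TUBB2A: ATGCGCGAGATCgtgcacatccaggcgggc
TUBB2B: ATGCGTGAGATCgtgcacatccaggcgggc
TUBB3: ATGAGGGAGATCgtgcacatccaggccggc
TUBB4B: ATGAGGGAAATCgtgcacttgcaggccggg
TUBB6: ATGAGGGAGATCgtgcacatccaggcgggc
The 3 genes TUBA1A, TUBA1B and TUBA1C share all of the bases shown. Among the beta-tubulins, TUBB shares its capitals with TUBB4B and TUBB3 shares them with TUBB6. Over whole coding sequences, pairs of alpha-tubulins were 84.6% to 97.3% identical and pairs of beta-tubulins 81.3% to 98.1%, with TUBB2A and TUBB2B the closest pair, while alpha and beta members were 57.9% to 60.3% identical.

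Such likeness bears on the counts, since reads were 100 bases long per the labels. The libraries were paired-end, so shares of single 100-base stretches are not shares of fragments that fit several genes. Of all 100-base stretches of its main transcript, TUBB6 shared 0.0% with a transcript of another gene on its strand, TUBA4A 1.8%, TUBB4B 2.9% and TUBB 5.1%. TUBA1C shared 11.5%, TUBA1A 18.3%, TUBA1B 37.2%, TUBB2B 46.2% and TUBB2A 56.4%, mainly with each other. TUBB3 shared 89.0%, with a second protein-coding locus of the annotation named AC092143.1 (ENSG00000198211). That locus overlaps TUBB3 itself on the same strand, over 14701 bases. On the opposite strand TUBA1C overlaps TUBA1A on chromosome 12, where their annotated spans of 49188736 to 49274603 and 49184796 to 49189324 (GRCh38) meet. RSEM, which is among the tools the submitters name, divides reads that fit several transcripts by likelihood, so the split within the TUBA1 genes, within the TUBB2 pair and between TUBB3 and that locus is less certain than the levels of TUBB, TUBB4B and TUBB6.

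Library totals ran from 19031094 to 37686975 expected counts. Values below are CPM scaled by the trimmed mean of M-values, an edgeR scaling of the library total to which each count is set in proportion, with fold changes from 1 edgeR quasi-likelihood fit of all libraries, and a gene is said to have risen or fallen at a Benjamini-Hochberg adjusted p under 0.05 over the 19366 genes. The vehicle libraries form a library-name set of their own (D1), so set and extract cannot be told apart in a comparison with vehicle, whereas high and low doses of an extract share a set. In 14 libraries counts were tilted towards short transcripts (a slope of log2 deviation from vehicle on log2 transcript length below -0.15), and none of them was a high dose library of Polygalae, Aucklandiae, Guibi or Soyo. Of the astrocyte and glioma markers, VIM and CD44 averaged 5210 and 2890 CPM in vehicle. CHI3L1 averaged 773, GJA1 209, SOX9 86.2, SLC1A3 32.6 and NES 7.62 CPM there. SLC1A2, GFAP and S100B lay at 0.343, 0.179 and 0.152 CPM and AQP4, ALDH1L1, SOX2 and FABP7 at 0. Of the 13 neuron markers, SNAP25, SYT1, MAP2, NEFL and SYP averaged 30.1, 25.2, 7.01, 2.99 and 1.23 CPM in vehicle, and RBFOX3 0.178 CPM. DCX, STMN2, ELAVL3, ELAVL4, INA, GAP43 and NEFM stayed under 0.25 CPM in all libraries. The neuron markers summed to 28.4 to 70.6 CPM with extracts and 65.8 to 68.5 CPM in vehicle.

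In vehicle the members spanned a wide range of levels. Per kilobase of longest coding transcript, TUBA1B was highest at 1459 ± 22.9 CPM per kb (SD, n = 3), before TUBB at 1021 ± 13.8. TUBB4B (346 ± 16.6), TUBA1C (293 ± 12.0) and TUBA1A (212 ± 8.68) formed the middle of the order. TUBB6 (81.6 ± 1.75), TUBB2A (65.9 ± 2.50), TUBB3 (56.3 ± 3.65) and TUBA4A (46.5 ± 1.75) followed, and TUBB2B was lowest at 3.67 ± 0.331 CPM per kb. No neighbours in this order overlapped between the vehicle libraries. With the median transcript length in place of the longest, TUBA1C stood above TUBB4B (636 and 346 CPM per kb) and TUBB3 above TUBB2A (136 and 65.9 CPM per kb), so those ranks rest on the length chosen. Together the 10 genes took 0.721% ± 0.0137 of all expected counts in vehicle.

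At the high doses of Polygalae and Guibi all 10 tubulin genes fell. Against vehicle, 10 of 10 members were lower with Polygalae, where 25.6% of all tested genes were lower (48% changed in either direction), and 10 of 10 with Guibi, where 26.6% were lower (50.2% in either direction). The members' median log2 fold change was -1.88 with Polygalae and -1.90 with Guibi, beside 0.03 for all tested genes in each. The 10 genes together took 0.239% ± 0.0106 of the counts with Polygalae (n = 2), 0.251% ± 0.0125 with Guibi (n = 3) and 0.721% ± 0.0137 in vehicle (SD, n = 3). In scaled CPM they summed to 1941 ± 190, 1936 ± 129 and 7699 ± 144 in the same order. That is a larger fall, so the size of the fall depends on the scaling. Scaling by the library total alone was not among the alternatives run. In bulk RNA, less messenger RNA per cell and fewer cells that make it cannot be told apart. Both comparisons use the same vehicle libraries. In every alternative and every omission of a library that was run, all 10 members stayed lower at both high doses.

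**Figure D1:**
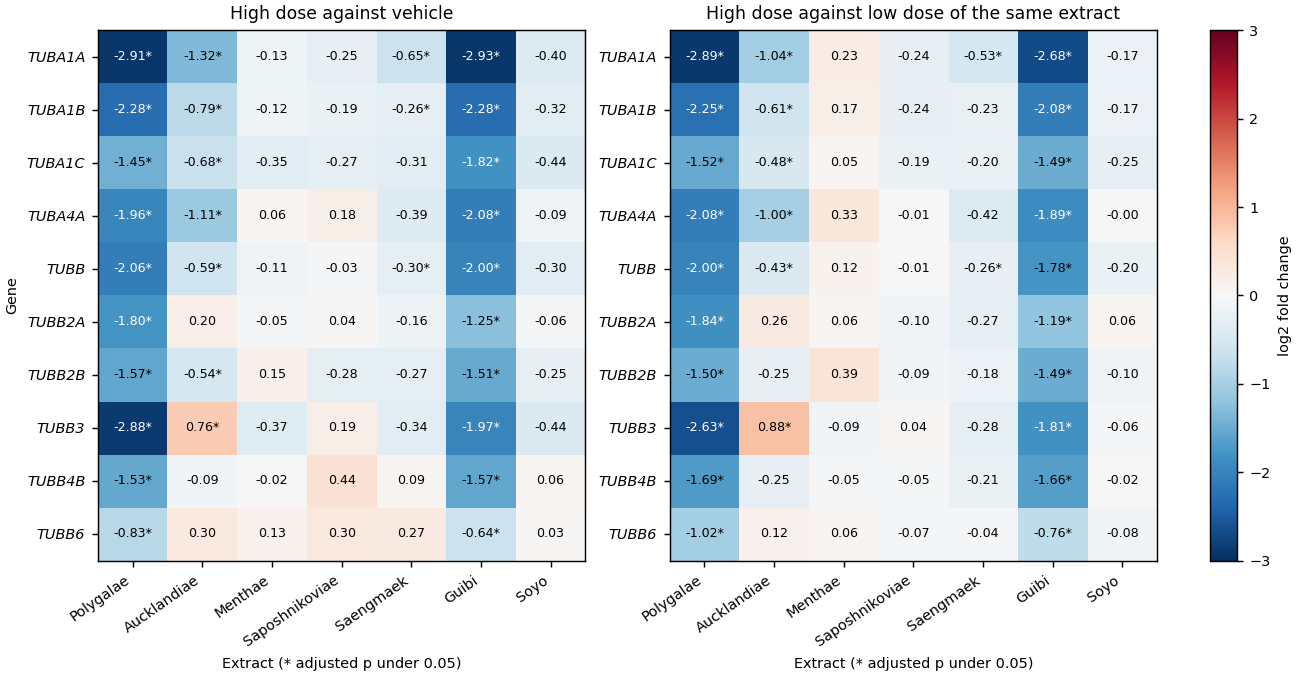
Log2 fold change of each member at the high dose against vehicle (left) and against the low dose of the same extract (right), with members as rows and extracts as columns; blue is lower and red higher at the high dose, and stars mark adjusted p under 0.05. The Polygalae and Guibi columns are blue for all 10 members, and the Aucklandiae column holds 1 red star, at TUBB3.

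Among the alpha-tubulins, TUBA1A, the main alpha isotype of developing neurons, had the lowest fold changes. It had 61.4 and 46.1 CPM in the Polygalae high dose libraries and 53.7, 53.1 and 53.3 CPM in those of Guibi, against 408, 421 and 388 CPM in vehicle. The groups do not come near each other, and the log2 fold change was -2.91 (SE 0.161, adjusted p = 1.79e-18, edgeR) with Polygalae and -2.93 (SE 0.137, adjusted p = 7.79e-21) with Guibi. TUBA1B, the most abundant alpha isotype, had 520.4 and 457 CPM with Polygalae and 488, 454 and 524 CPM with Guibi, against 2367, 2414 and 2341 CPM in vehicle. That is a log2 fold change of -2.28 with either extract (SE 0.113 and 0.0968). With the counts of TUBA1A, TUBA1B and TUBA1C summed, so that the split among them does not matter, the log2 fold change was -2.07 with Polygalae. TUBA4A, an isotype whose encoded tail lacks the final tyrosine, had log2 fold changes of -1.96 with Polygalae and -2.08 with Guibi. TUBA1C, a widely expressed isotype, fell least of the 4, with 359 and 284 CPM with Polygalae and 261, 216 and 270.4 CPM with Guibi, against 866, 921 and 854 CPM in vehicle. Its log2 fold change was -1.45 (SE 0.157) and -1.82 (SE 0.138).

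Among the beta-tubulins, TUBB, the class I isotype of most cells, had 750.4 and 667 CPM with Polygalae and 739, 689 and 799 CPM with Guibi, against 3006, 2957 and 2926 CPM in vehicle. It fell by 2.06 (SE 0.0960) and by 2.00 (SE 0.0823) on the log2 scale. TUBB3 had 17.7 and 12.6 CPM with Polygalae and 29.9, 26.8 and 28.5 CPM with Guibi, against 114, 117 and 103 CPM in vehicle. Its log2 fold change was -2.88 (SE 0.195) with Polygalae and -1.97 (SE 0.159) with Guibi, and the libraries of the 2 extracts do not overlap. TUBB2A, a beta isotype rich in brain, had 30.5 and 29.8 CPM with Polygalae and 43.9, 42.3 and 46.5 CPM with Guibi, against 108, 106 and 101 CPM in vehicle. Its log2 fold changes were -1.80 (SE 0.128) and -1.25 (SE 0.109), again with no overlap between the 2 extracts. The differences between Polygalae and Guibi were not tested, and the 2 extracts belong to different library-name sets. TUBB4B, a broadly expressed isotype also found in cilia, fell by 1.53 with Polygalae and by 1.57 with Guibi, and the sparse TUBB2B fell by 1.57 and by 1.51, all on the log2 scale. TUBB6, a beta isotype of non-neuronal tissues, fell least of all members. It had 96.5 and 93.5 CPM with Polygalae and 109, 109.7 and 107 CPM with Guibi, against 172, 169 and 165 CPM in vehicle, which gives log2 fold changes of -0.83 (SE 0.124, adjusted p = 4.66e-07) and -0.64 (SE 0.108, adjusted p = 4.30e-06).

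The falls were also present inside 1 library-name set, between the high and the low dose of the same extract. Of 10 members, 10 were lower at the high than at the low dose of Polygalae (25.2% of all tested genes were lower, 46% changed), with a median log2 fold change of -1.92, and 10 with Guibi (27.4% lower, 51.2% changed), with a median of -1.72. TUBA1A had log2 fold changes of -2.89 (SE 0.167) with Polygalae and -2.68 (SE 0.135) with Guibi, TUBB3 had log2 fold changes of -2.63 (SE 0.202) and -1.81 (SE 0.159), and TUBB6 of -1.02 (SE 0.134) and -0.76 (SE 0.108).

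On the log2 scale the larger step of the fall lay between the medium and the high dose for all 10 members with both extracts. TUBB6 was near or above vehicle at the medium dose (log2 fold change -0.02 with Polygalae and 0.13 with Guibi, neither past the threshold). For some other members part of the fall was already present there. TUBB, for example, averaged 2963 ± 40.2 CPM in vehicle, 2827 ± 110 CPM at the low, 2158 ± 149 CPM at the medium and 709 ± 59.0 CPM at the high dose of Polygalae (n = 2 per dose), and 2548 ± 39.9 CPM, 2298 ± 151 CPM and 742 ± 55.3 CPM at the same doses of Guibi (SD, n = 3 each). At the medium dose against vehicle, 3 of 10 members fell with Polygalae (2.64% of all tested genes were lower, 4.4% changed) and 3 of 10 with Guibi (3.1% lower, 6.77% changed). They were TUBA1A, TUBA1B and TUBB with both, the most being TUBA1A with Guibi at -0.69 (SE 0.127, adjusted p = 4.71e-04). Without Polygalae medium replicate 3 none of its 3 calls passed (log2 fold changes -0.30, -0.26 and -0.39 for TUBA1A, TUBA1B and TUBB). Without any 1 of the vehicle libraries TUBA1A missed the threshold with Polygalae (adjusted p from 0.0736 to 0.127), and without vehicle replicate 2 so did TUBA1B (0.0597). With no filter on low counts, TUBA1A and TUBA1B with Polygalae (adjusted p = 0.118 and 0.164) and TUBA1B and TUBB with Guibi (0.0548 and 0.0709) missed it too. At the low dose 0 of 10 members passed with either extract, where 1.11% and 2.46% of all tested genes did in either direction.

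**Figure D2:**
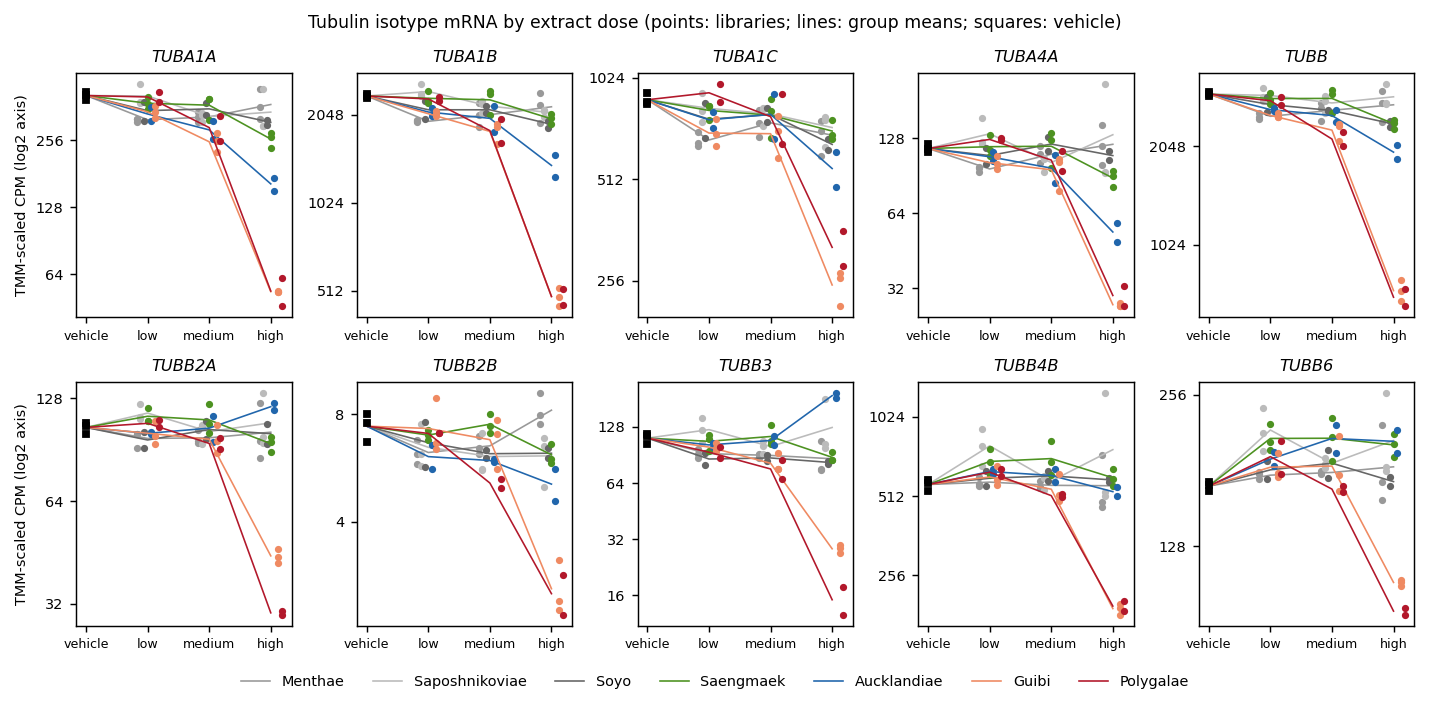
TMM-scaled CPM of each member (log2 axis) in vehicle and at the low, medium and high dose of 7 extracts; points are libraries, squares are vehicle libraries and lines join group means. The Polygalae and Guibi lines drop between the medium and the high dose in all 10 panels, and the Aucklandiae line rises at the high dose of TUBB3.

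Aucklandiae split the family. Against vehicle its high dose lowered 6 of 10 members (17% of all tested genes were lower) and raised 1 (15.7% higher, 32.7% changed in either direction), and against its low dose it lowered 5 (13.4%) and raised 1 (10.5%, with 24% changed). The 4 alpha-tubulins and TUBB fell in both comparisons, TUBB2B fell against vehicle and missed the threshold against the low dose, and TUBB3 rose in both. The median log2 fold change of the 10 was -0.56 against vehicle and -0.34 against the low dose, beside -0.02 and -0.01 for all tested genes.

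TUBB3 had 182 and 195 CPM at the high dose of Aucklandiae, against 105 and 100.3 CPM at its low dose and 114, 117 and 103 CPM in vehicle. Both high dose libraries lay above every low dose and vehicle library. Most 100-base stretches of TUBB3 (89.0%) also occur in AC092143.1, which overlaps it on the same strand. No alternative summed TUBB3 with that locus. The part of that split of reads in the rise was not tested. The log2 fold change was 0.76 against vehicle (SE 0.169, adjusted p = 4.42e-04) and 0.88 against the low dose (SE 0.188, adjusted p = 4.08e-04). The medium dose libraries, at 114 and 102 CPM, overlapped vehicle. TUBA1A had 173 and 152 CPM at the high dose, against 359 and 311 CPM at the low dose, a log2 fold change of -1.04 (SE 0.157, adjusted p = 1.77e-06). TUBA4A fell by 1.00 (SE 0.224), TUBA1B by 0.61 (SE 0.114), TUBA1C by 0.48 (SE 0.164) and TUBB by 0.43 (SE 0.0973) on the log2 scale between high and low dose. TUBB2A had 118 and 124 CPM at the high dose, against 102 and 100.3 CPM at the low dose, but its log2 fold change of 0.26 (SE 0.131, adjusted p = 0.160) did not pass. Neither TUBB6 (0.12, SE 0.132) nor TUBB4B (-0.25, SE 0.227) passed in this comparison. TUBB4B and TUBB2A did pass without length-tilted libraries (adjusted p = 0.00563 and 0.00865), with the length slope as a term (0.00518 and 0.00195) and with the compared groups only (0.0247 and 0.0143). In some of these settings TUBB2A, TUBB4B or TUBB6 also passed against vehicle, TUBB6 at 0.30 without length-tilted libraries (adjusted p = 1.63e-04). The TUBA1C call was lost without high replicate 3 (-0.33, adjusted p = 0.307) or low replicate 2 (-0.40, adjusted p = 0.194), and with no filter on low counts (adjusted p = 0.0541). The TUBB2B call against vehicle was lost without high replicate 3 (-0.40). With TUBB2A and TUBB2B summed the value was 0.16, opposite in sign. That sum is mostly TUBB2A (105 CPM in vehicle, beside 7.41 CPM of TUBB2B), so it is no test of TUBB2B. At the medium dose of Aucklandiae 1 of 10 members was lower than in vehicle (1.85% of all tested genes were lower, 4.18% changed), TUBA1A at -0.51 (adjusted p = 0.0303), a call lost without any 1 of the 2 medium dose libraries (adjusted p = 0.0866 and 0.361) or any 1 of the vehicle libraries (0.0556 to 0.0938). At its low dose 0 of 10 passed (0.728%). TUBB3 is itself used as a neuron marker, and among the 6 tested genes of the neuron list 2 were lower and 0 higher between the high and low dose of Aucklandiae, SNAP25 at -1.44.

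**Figure D3:**
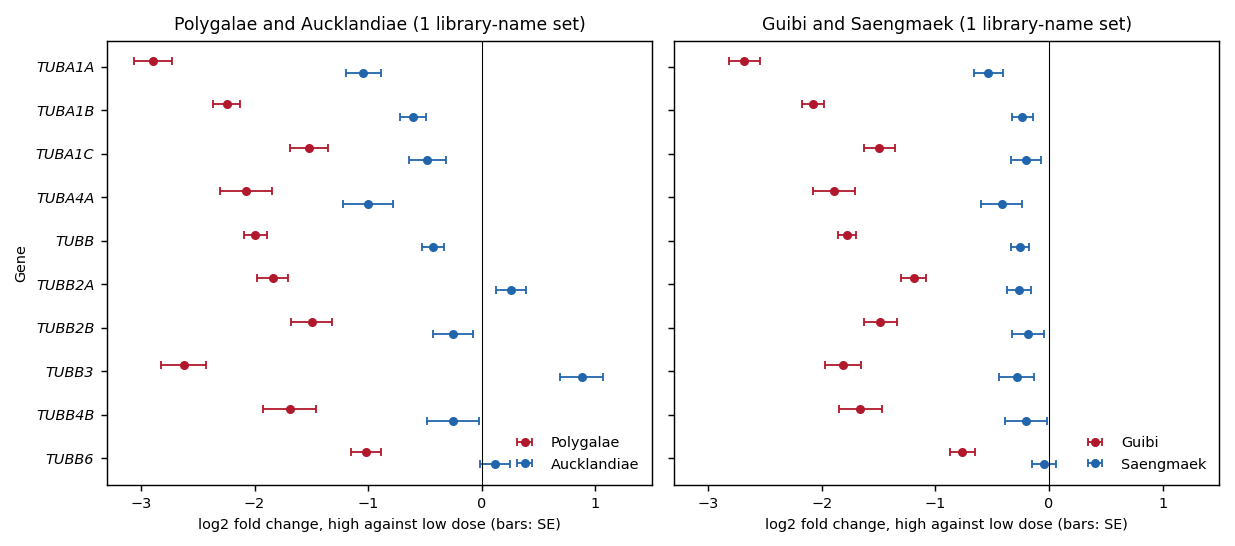
Log2 fold change of each member between high and low dose for the pairs of extracts that share a library-name set (points, with SE as bars); Polygalae and Aucklandiae on the left, Guibi and Saengmaek on the right. All Polygalae and Guibi points lie left of their partner's, and the gap is widest at TUBB3 on the left.

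Since Polygalae and Aucklandiae share a set, the difference between their high-to-low changes could be tested. It was lower for Polygalae in 10 of 10 members (18.7% of all tested genes were lower, 33.9% differed), from -1.04 for TUBA1C (SE 0.232, adjusted p = 4.41e-04) to -3.51 for TUBB3 (SE 0.275, adjusted p = 2.23e-13) on the log2 scale. Guibi against Saengmaek gave the same count, 10 of 10 lower for Guibi (19.9% of all tested genes were lower, 34.9% differed), from -0.72 for TUBB6 (SE 0.153) to -2.15 for TUBA1A (SE 0.182). Menthae against Saposhnikoviae gave 1 of 10, higher for Menthae (4.53% of all tested genes were higher, 11.5% differed), TUBA1B with a difference of 0.41 (SE 0.131, adjusted p = 0.0359). That call was lost without any 1 of 8 of the 12 libraries, each of the 3 Menthae low libraries among them, and without Saposhnikoviae high replicate 2 the number of members called was 5.

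The other extracts gave fewer calls in the family. With Saengmaek at the high dose 3 of 10 members were lower than in vehicle (8.54% of all tested genes were lower, 17.4% changed), TUBA1A (log2 fold change -0.65, SE 0.127), TUBB (-0.30, SE 0.0794) and TUBA1B (-0.26, SE 0.0924, adjusted p = 0.0454). Against the low dose 2 were lower (3.28%, with 5.7% changed), TUBA1A (-0.53, SE 0.127, adjusted p = 0.00584) and TUBB (-0.26, SE 0.0793, adjusted p = 0.0466). TUBA1A had 274, 237 and 265 CPM at the high dose, against 398, 372 and 353 CPM at the low dose, with no overlap. Its call against the low dose was lost without high replicate 2 (-0.47, adjusted p = 0.0529). The counts of the 3 TUBA1 genes summed did not pass (-0.25, adjusted p = 0.217). TUBA1B is the largest part of that sum (2332 CPM at the low dose, beside 374 CPM of TUBA1A), so it is no test of TUBA1A alone. The TUBA1B call was lost without any 1 of the 6 libraries compared (adjusted p from 0.0750 to 0.122), and so was that of TUBB against the low dose (0.0666 to 0.205). With no filter on low counts TUBA1A alone passed in either comparison. With Menthae, Saposhnikoviae and Soyo at the high dose 0 of 10 members passed against vehicle, where 22.8%, 12.7% and 2.91% of all tested genes did, and 0 of 10 against the low dose, where 15.6%, 0.377% and 0.496% did. At an unadjusted p under 0.05, 2, 4 and 5 members passed against vehicle with these 3 extracts in that order and 1 with each against the low dose, and DESeq2 called 1, 1 and 2 against vehicle and 1, 0 and 0 against the low dose. These counts have no share of all tested genes beside them and are not read as a result about the family. Leaving out Saposhnikoviae high replicate 2 gave 3 calls against the low dose, TUBA1A at -0.45, TUBA4A at -0.52 and TUBB4B at -0.61, all lower, and 1 against vehicle, TUBA1A at -0.46. Without its high replicate 1 or 3, TUBB4B (0.65 and 0.66) and TUBB6 (0.39 and 0.38) were higher than in vehicle. For Menthae, TUBB3 was lower than in vehicle without high replicate 3 (-0.56), TUBA1C without high replicate 2 (-0.42), and TUBB2B was higher than at the low dose without high replicate 1 (0.45). For Okbyeongpung, with its 3 doses pooled, 0 of 10 passed with edgeR and 0 with DESeq2 (11.5% of all tested genes with edgeR), and TUBA1C alone had an unadjusted p under 0.05 (-0.31). At the medium doses 0 of 10 passed with Menthae (0.997%), Saposhnikoviae (1%), Saengmaek (4.36%) and Soyo (0.238%), and at the low doses 0 of 10 with Menthae (0.496%), Saengmaek (4.02%) and Soyo (1.52%). At the low dose of Saposhnikoviae 1 of 10 members was higher than in vehicle (9.38% of all tested genes were higher, 17% changed), TUBB6 at 0.37 (SE 0.108, adjusted p = 0.0195), a call lost without Saposhnikoviae low replicate 3 (0.29, adjusted p = 0.212), whose length slope was -0.496, or without vehicle replicate 2 or 3 (adjusted p = 0.0564 and 0.0805).

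Single libraries stood apart in these groups, and TUBB4B shows it best. Saposhnikoviae high replicate 2 had 1263 CPM of TUBB4B, against 531 and 514 CPM in the other high dose libraries, and Okbyeongpung high replicate 1 had 1105 CPM, against 570.5 and 604 CPM at the medium and low doses. In the same libraries TUBA4A stood at 210.3 and 207 CPM, beside 93.4 and 92.5 CPM in the other Saposhnikoviae high dose libraries. Their length slopes, -0.661 and -0.593, were below those of the 58 others. With that slope in the fit, 6 members were called against vehicle with Menthae, 2 with Saposhnikoviae, 9 with Saengmaek and 5 with Soyo. The low counts for these extracts thus depend on that setting. The slope is measured from the vehicle mean, so the term is bound up with extract against vehicle. No share of all tested genes under that setting is given, and whether the rise is particular to tubulins was not tested.

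**Figure D4:**
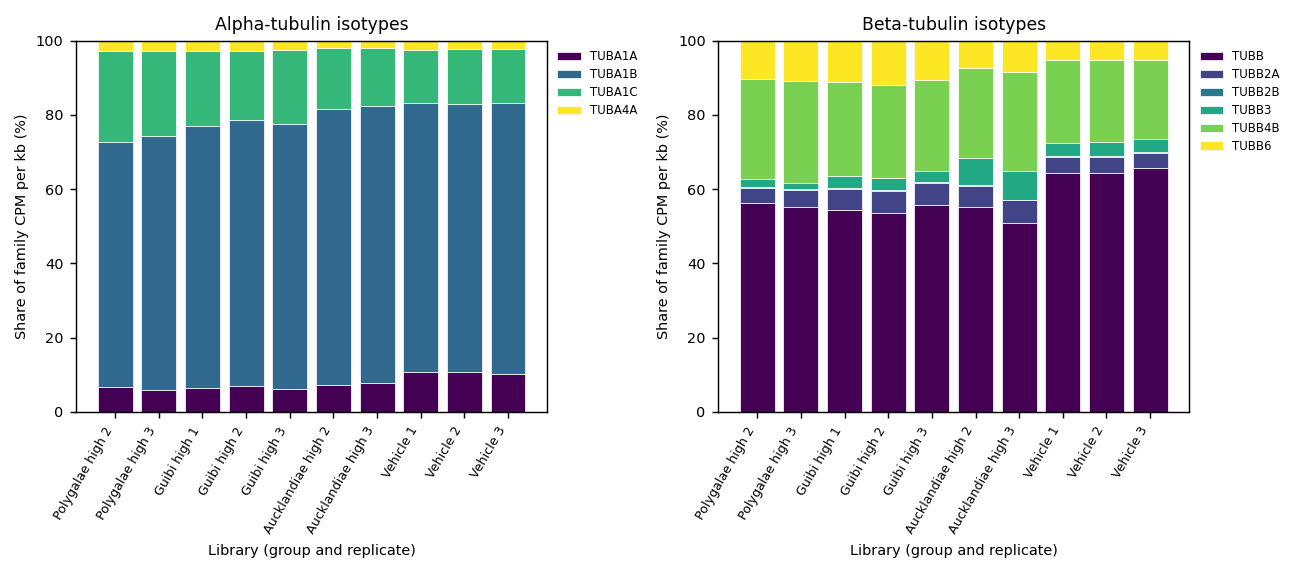
Make-up of the alpha (left) and beta (right) family as the share of each isotype in the family's CPM per kilobase, 1 bar per library, for the high doses of Polygalae, Guibi and Aucklandiae and for vehicle. TUBA1A takes a smaller and TUBB6 a larger share in the extract libraries than in vehicle, and the TUBB3 share is largest with Aucklandiae.

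Because the members fell unequally, the make-up of the family shifted. Per kilobase, TUBA1A made up 6.24% ± 0.530 of the alpha family with Polygalae, 6.62% ± 0.471 with Guibi, 7.51% ± 0.233 with Aucklandiae and 10.5% ± 0.208 in vehicle (SD, n = 2, 3, 2 and 3). TUBA1C took 23.9% ± 1.13, 19.6% ± 1.00, 16.2% ± 0.636 and 14.6% ± 0.289 in the same groups. TUBB6 made up 10.6% ± 0.495 of the beta family with Polygalae, 11.2% ± 0.751 with Guibi, 7.86% ± 0.665 with Aucklandiae and 5.19% ± 0.0115 in vehicle. TUBB3 took 1.74% ± 0.290, 3.07% ± 0.15, 7.46% ± 0.424 and 3.58% ± 0.166 in that order, so its share was lowest with Polygalae and highest with Aucklandiae. These shares are descriptions on the longest transcript lengths and carry no test.

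TUBA1B has an antisense locus, TUBA1B-AS1, which covers the gene on the opposite strand (its span is 49127782 to 49147869 on chromosome 12, that of TUBA1B 49127782 to 49131397, in GRCh38), and 65.4% of the 100-base stretches of TUBA1B occur in its transcripts in reverse complement. The kit keeps strand, but the counting setting is not given in the sources used here. Its level differed by library, with no values between 4.38 and 85.4 CPM. It lay at 162, 255.5 and 85.4 CPM in replicate 2 of the low, medium and high dose of Polygalae, at 655 CPM in Saposhnikoviae high replicate 2 and at 202 CPM in Okbyeongpung high replicate 1. In the other 52 extract libraries it did not exceed 4.38 CPM, and in vehicle it lay at 136, 136 and 135 CPM. Replicate 3 of Polygalae had 0.625, 0.0415 and 0.164 CPM at the same doses. TUBA1B had 520.4 and 457 CPM in the 2 replicates at the high dose. It ran from 1633 to 1981 CPM at the medium dose and from 2289.7 to 2349.5 CPM at the low dose. With the antisense counts added to TUBA1B its log2 fold change was -2.24 with Polygalae and -2.36 with Guibi at the high dose against vehicle, an alternative chosen after the data were seen.

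**Figure D5:**
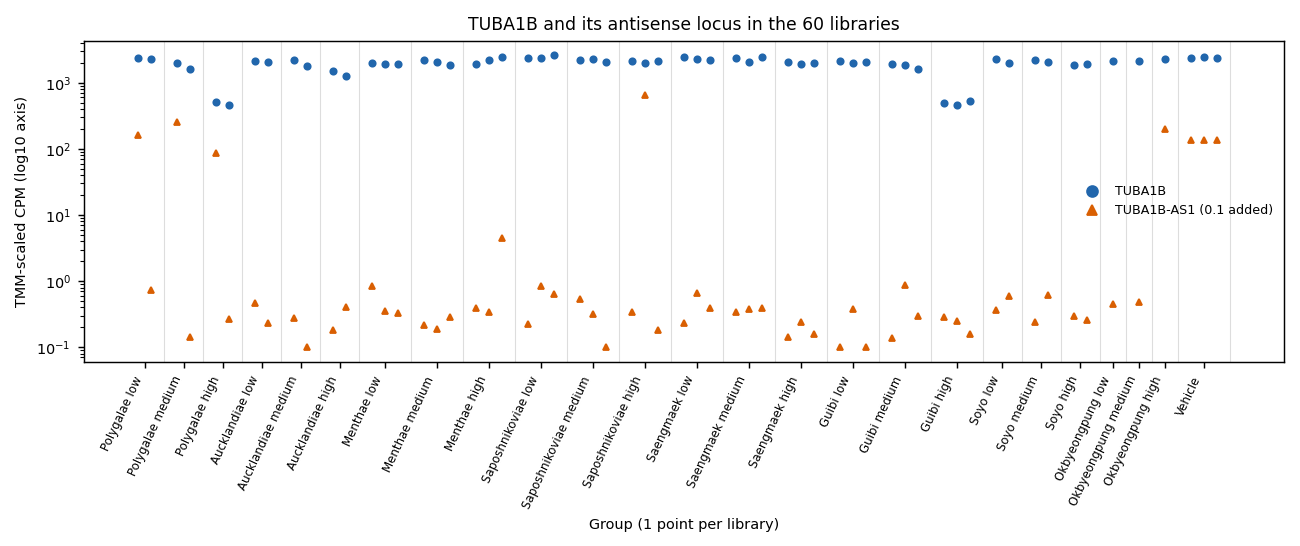
TMM-scaled CPM (log10 axis) of TUBA1B (circles) and of TUBA1B-AS1 (triangles, with 0.1 added so that 0 can be drawn) in each of the 60 libraries, by group with doses low to high. The triangles lie above 50 CPM in 8 libraries and under 5 CPM in all others, while TUBA1B is lowest in the high dose groups of Polygalae and Guibi, then in that of Aucklandiae.

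The genes that fold tubulin were read beside the members. CCT, the ring-shaped chaperonin that folds new tubulin and actin chains, had 8 of 8 subunits lower at the high than at the low dose of Polygalae (median log2 fold change -1.69) and of Guibi (median -1.53), led by CCT7 at -2.41 and -2.13, with CCT2 at -1.80 and -1.69 and CCT3 at -1.76 in each. With Aucklandiae 1 subunit was higher, TCP1 at 0.31, and 0 were lower (median -0.02). Prefoldin, which hands nascent chains to CCT, had 5 of 6 subunits lower with Polygalae and 3 of 6 with Guibi, PFDN5 at -1.31 and -1.04 among them, and with Aucklandiae 2 higher, PFDN2 at 0.79 and PFDN1 at 0.49. Of 6 tested cofactors that assemble the dimer, 4 were lower and 2 higher with Polygalae, TBCD at -1.40 and TBCC at 0.89 among them, 3 lower and 2 higher with Guibi, TBCD at -1.53, and 1 lower with Aucklandiae, TBCD at -0.48. These counts stand beside 25.2%, 27.4% and 13.4% of all tested genes lower in the same comparisons, and 46%, 51.2% and 24% changed in either direction. With Aucklandiae 10.5% of all tested genes were higher.

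The genes of the decay pathway that reads the nascent chain were called about as often as other genes with Polygalae and Guibi, and in both directions. TTC5, the recognition factor, had log2 fold changes between high and low dose of -0.02 (adjusted p = 0.894) with Polygalae, -0.13 (adjusted p = 0.182) with Guibi and -0.20 (adjusted p = 0.158) with Aucklandiae, none past the threshold. SCAPER, its partner, rose by 0.22 with Guibi (adjusted p = 0.0453) and had 0.13 (adjusted p = 0.366) with Polygalae. Of all 12 genes of this list, 4 were higher and 1 lower with Polygalae, 4 higher and 3 lower with Guibi and 0 either way with Aucklandiae. Of all tested genes 46% changed in either direction with Polygalae, 51.2% with Guibi and 24% with Aucklandiae. CNOT6L and CNOT6, deadenylase subunits, rose by 0.92 and 0.67 on the log2 scale with Polygalae and by 0.71 and 0.83 with Guibi, and CNOT10 fell by 0.78 and by 0.71.

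Other tubulins and microtubule proteins were read from lists in the same way, between high and low dose, where 25.2% of all tested genes were lower with Polygalae, 27.4% with Guibi and 13.4% with Aucklandiae (46%, 51.2% and 24% changed in either direction). Of 13 further tubulin genes 9 were tested, and TUBG1, the gamma-tubulin that nucleates microtubules, fell by 1.47 with Polygalae and by 1.01 with Guibi on the log2 scale. In all, 4 of the 9 were lower with Polygalae, 1 lower and 1 higher with Guibi and 1 lower with Aucklandiae. The further alpha and beta isotypes TUBA8, TUBB1, TUBB4A, TUBA3C and TUBA3D averaged 1.54, 0.413, 0.388, 0.317 and 0.11 CPM in vehicle. TUBB4A reached 11.5 CPM in its highest library. The gamma-tubulin ring had 6 of 14 genes lower and 1 higher with Polygalae, 8 lower with Guibi and 1 lower with Aucklandiae, with TUBGCP2 at -1.62 and -1.34. Microtubule-associated proteins had 11 of 21 tested genes lower and 0 higher with Polygalae and 11 lower and 2 higher with Guibi, MAP4, which stabilises microtubules in most cells, at -1.84 and -1.58. With Aucklandiae 2 were lower and 1 higher, DCLK1 at -2.29 and MAP1B at 0.85. Of enzymes that modify tubulin tails, 7 of 21 were lower and 2 higher with Polygalae, 9 lower and 3 higher with Guibi, and 7 lower and 2 higher with Aucklandiae. There SVBP, a partner of the detyrosinating vasohibins, stood at -1.66. Genes that destabilise or sever microtubules had 4, 5 and 5 of 11 lower and 0, 2 and 0 higher in the same order, the mitotic KIF2C at -1.09, -1.52 and -1.85. The genes higher with Guibi, named after their values were seen, were CAMSAP2 (0.88) and MAP6 (0.56) among the microtubule-associated proteins and the severing-family genes KATNAL1 (0.71) and FIGNL1 (0.64).

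G2/M genes, transcribed mainly in cells about to divide, were set beside the members, again where 25.2%, 27.4% and 13.4% of all tested genes were lower with Polygalae, Guibi and Aucklandiae. Of 20, 15 were lower at the high than at the low dose of Polygalae (median log2 fold change -0.85), 19 with Guibi (-1.13) and 20 with Aucklandiae (-1.84). KIF20A, a mitotic kinesin, stood at -3.05, -3.70 and -3.39. The G2/M median was thus lowest with Aucklandiae, where the tubulin median was -0.34 and TUBB3 rose. The part of the G2/M change in the tubulin levels was not tested. Among the cell type lists, 6 of 8 tested astrocyte and glioma markers were lower with Polygalae, 7 with Guibi and 2 with Aucklandiae, VIM at -3.26 and -2.70 with Polygalae and Guibi. Their summed level was 1900 to 10300 CPM in the extract libraries and 9140 to 9270 CPM in vehicle. Of 6 tested neuron markers 3, 4 and 2 were lower in the same order. Leukocyte markers summed to 47.3 to 309 CPM with extracts and 193 to 205 CPM in vehicle, endothelial to 11.1 to 48.7 and 35.6 to 40.4 CPM, epithelial to 23.5 to 309 and 142 to 154 CPM, and hepatocyte to 0.791 to 8.8 and 6.24 to 6.98 CPM. Their part in the tubulin levels was not tested.

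Of 10248 other genes at a mean log2 CPM of at least 3, the 5 whose group means followed the mean of the 10 members most closely were ACTB (Pearson r = 0.991), ANXA2 (0.991), GNAI2 (0.990), MPP1 (0.988) and ATP5PB (0.988), over 25 group means of log2 CPM. The points share the vehicle group and the same libraries, and r rests in part on the Polygalae and Guibi high doses: without them it was 0.921 for ACTB, the beta-actin gene, and 0.838 to 0.883 for the others. Within the family, TUBA1B and TUBB followed each other with and without these groups (r = 0.995 and 0.933), while TUBA1A and TUBB3 had r = 0.806 with them and -0.271 without. These values are descriptions over group means.

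The promoters of TUBB4B and TUBA1B, which fell with Polygalae and Guibi, and of TUBB3, which also rose with Aucklandiae, are shown to the last base before an annotated exon (RefSeq, GRCh38.p14, sense strand, 5′ to 3′). Capitals mark the motifs searched. They were CCAAT, whose other strand reads ATTGG, the GC box GGGCGG, whose other strand reads CCGCCC, and the TATA motif TATAAA, whose other strand reads TTTATA.
TUBB4B, chr9:137241037-137241212 (+): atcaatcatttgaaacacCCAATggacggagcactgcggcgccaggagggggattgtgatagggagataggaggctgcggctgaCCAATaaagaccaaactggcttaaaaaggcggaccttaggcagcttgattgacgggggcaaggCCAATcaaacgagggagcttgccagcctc
TUBA1B, chr12:49131398-49131645 (-): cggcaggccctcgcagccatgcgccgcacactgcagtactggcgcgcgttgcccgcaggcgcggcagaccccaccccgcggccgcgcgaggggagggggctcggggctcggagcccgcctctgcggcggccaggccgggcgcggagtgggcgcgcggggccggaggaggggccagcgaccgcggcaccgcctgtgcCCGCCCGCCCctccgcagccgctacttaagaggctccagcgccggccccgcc
TUBB3, chr16:89923092-89923278 (+): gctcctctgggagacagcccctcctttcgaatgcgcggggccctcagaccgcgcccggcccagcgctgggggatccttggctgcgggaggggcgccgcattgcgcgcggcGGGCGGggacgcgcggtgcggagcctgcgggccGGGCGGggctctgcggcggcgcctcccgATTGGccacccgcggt
In the 250 bases before the start site TUBB4B held 3 CCAAT matches and TUBA1B 0, while TUBA1B held 3 matches to the GC box, of which the stretch shown holds 2 that overlap each other, and TUBB2A 5. Of 35116 promoters in the table, 32.0% held the CCAAT motif, 42.6% the GC box and 10.7% the TATA motif on either strand. A match is a description of these letters and says nothing of a factor.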

How the data were processed

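Messenger RNA of SW1783 cells was sequenced as directional, paired-end libraries. The deposited table holds expected counts per gene, estimated counts deposited by the authors without scaling. The submitters' processing notes list RSEM 1.3.3, STAR 2.7.3a, GRCh38, Trim Galore 0.6.5 and FastQC 0.11.9 without roles. Counts were rounded to whole numbers. Genes passing edgeR's filter (minimum count 10, minimum total 15) were fitted with 25 group means over 60 libraries (35 residual degrees of freedom), TMM scaling and robust quasi-likelihood tests in edgeR 4.0.16 (R 4.3.3). Benjamini-Hochberg adjustment covered all 19366 genes, with a threshold of 0.05. Library totals of 19031094 to 37686975 limit the precision of sparse genes such as TUBB2B. The members and lists were chosen with earlier results of these data known. The list genes named were the 2 most changed called ones per list and extract whose mean log2 CPM reached 2; others beside them were chosen after their values were seen. The fit was run on simulated data with far fewer changed genes than at the high doses of Polygalae and Guibi. That run cannot show how the scaling performs there. Alternatives comprised DESeq2 1.42.0, other size factors, no filter, a replicate block, single libraries left out and corrections for length tilt. Same-numbered replicates deviated together in some comparisons and not in others. Between Saposhnikoviae high and low dose, r was 0.9 for replicate 1 and -0.882 for replicate 3. The main fit did not pair them. Sequences came from GENCODE 29 and RefSeq (Biopython 1.88), figures from matplotlib 3.10.9.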

Additional observations from a re-analysis of the deposited data

Results flagged for a closer look

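The changes between high and low dose differed between extracts of 1 library-name set by an interaction test (edgeR, adjusted p under 0.05), which is why these values are given. For Polygalae minus Aucklandiae the difference in log2 fold change was -1.85 for TUBA1A, -1.64 for TUBA1B, -1.04 for TUBA1C, -1.07 for TUBA4A and -1.56 for TUBB. It was -2.10 for TUBB2A, -1.25 for TUBB2B, -3.51 for TUBB3, -1.44 for TUBB4B and -1.14 for TUBB6. For Guibi minus Saengmaek it was -2.15 for TUBA1A, -1.84 for TUBA1B, -1.29 for TUBA1C, -1.47 for TUBA4A and -1.52 for TUBB. It was -0.93 for TUBB2A, -1.30 for TUBB2B, -1.53 for TUBB3, -1.46 for TUBB4B and -0.72 for TUBB6. For Menthae minus Saposhnikoviae it was 0.41 for TUBA1B.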

How the results depend on the processing

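The counts of members called for Polygalae and Guibi at the high dose, and for their differences from Aucklandiae and Saengmaek, were 10 under every alternative run, and those of Aucklandiae kept within 1.5 times. The counts below have no share of all tested genes beside them, so they show dependence on the setting and no trait of the family. With DESeq2 the count was 1, 1 and 2 for Menthae, Saposhnikoviae and Soyo high against vehicle, 1 for Menthae high against low and 3 over all low doses. With RLE size factors it was 1 for each of the first 3 and 1 for Saengmaek high against low. With no filter it was 1 for Saengmaek high against vehicle and 1 against low, 2 over all medium doses, and 0 over all low doses and for Menthae against Saposhnikoviae. With the compared groups only it was 7 for Saengmaek and 5 for Soyo against vehicle, 20 over medium and 15 over low doses, 5 for Okbyeongpung and 0 for Menthae against Saposhnikoviae. With the length slope as covariate it was 6, 2, 9 and 5 for Menthae, Saposhnikoviae, Saengmaek and Soyo against vehicle, 3 and 6 for Menthae and Saengmaek against low, 28 over medium and 23 over low doses, 3 for Okbyeongpung and 3 for Menthae against Saposhnikoviae. Without length-tilted libraries it was 5, 2 and 5 for Menthae, Saposhnikoviae and Soyo against vehicle, 2 and 1 for Menthae and Saengmaek against low, 18 over medium and 6 over low doses. Same-numbered replicates did not deviate together in every pair, and with the replicate block the count was 1 for Soyo against vehicle, 1 for Saengmaek against low and within 1.5 times elsewhere. With Soyo's numbers crossed (same-number correlation -0.508), 0 members passed, an alternative added after seeing the data. Leaving out single libraries gave 0 to 1 for Menthae and 0 to 2 for Saposhnikoviae against vehicle, 0 to 1, 0 to 3 and 0 to 1 for Menthae, Saposhnikoviae and Saengmaek against low, 4 to 7 over medium and 0 to 2 over low doses, and 0 to 5 for Menthae against Saposhnikoviae. Signs turned with the length slope as covariate for TUBA4A with Menthae high (-0.31) and Saengmaek medium (-0.29), TUBB3 with Saposhnikoviae low (-0.23) and Saengmaek medium (-0.25), TUBB4B with Saengmaek high (-0.17) and between Menthae and Saposhnikoviae (-0.40), and TUBB6 with Menthae high against low (-0.16). They also turned without tilted libraries for TUBA4A with Saposhnikoviae high (-0.33). The TUBB2 pair summed had 0.16 with Aucklandiae high, opposite in sign to TUBB2B, but that sum is mostly TUBB2A. The cause was not tested.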
